A study of Homo sapiens with 32 samples.

Results

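The mRNAs of 50 genes that act in the G2 phase and mitosis were followed in HEK293T cells in which the m6A methyltransferase METTL3 was inhibited, the m6A reader YTHDF2 was knocked down or translation was stopped. The genes were chosen by name, from a list of mitotic regulators and structural proteins, and all 50 were found by symbol among the 60662 gene IDs counted in each of 32 libraries.

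HEK293T is a cell line from human embryonic kidney that carries SV40 large T antigen, a viral protein that binds the RB family of cell cycle repressors. STM2457 is a small-molecule inhibitor of METTL3, the enzyme that places m6A on mRNA, and every group received 0.2% DMSO, either alone or as the solvent of 20 µM STM2457. In the 9 h experiment, 4 libraries came from cells given DMSO and 4 from cells given STM2457 for 9 h. The knockdown experiment held 4 groups of 3 libraries, DMSO or STM2457 for 6 h, each with or without YTHDF2 siRNA (20 nM, 48 h before harvest). YTHDF2 binds m6A and recruits mRNA decay machinery. Libraries with no YTHDF2 siRNA are named WT in the labels, where a control siRNA is neither stated nor denied for them. The emetine experiment also held 4 groups of 3 libraries, DMSO or STM2457 for 6 h, each with or without 1.8 µM emetine, an inhibitor of translation elongation, in the last 2 h. Its groups without emetine are labelled as given DMSO for 2 h in its place. All RNA was poly(A)-selected bulk RNA from 1 cell line. The study asked how m6A affects transcript levels, and what part YTHDF2 plays for m6A in coding regions.

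Cells enter mitosis when CDK1 with cyclin B is switched on by CDC25 phosphatases, supported by Polo-like and Aurora kinases. The spindle checkpoint holds the anaphase-promoting complex (APC/C) until every chromosome is attached through its kinetochore, after which the APC/C with CDC20 marks cyclin B and securin for destruction and the sister chromatids separate. Most mRNAs of this machinery are made in G2, repressed in resting cells by the DREAM complex and raised by B-MYB and FOXM1. Many promoters of these genes hold CHR and CCAAT elements. The labels mention no synchronisation of the cells, so that a smaller share of cells in G2 or mitosis and less of an mRNA in each such cell cannot be told apart here.

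Promoter windows are shown for 4 of the 6 members with an entry that fell most with STM2457 at 9 h (CDC20, NDC80, HMMR, PRC1, NUF2 and CCNB2), because the CHR (cell cycle genes homology region) and CCAAT elements are what the members' promoters share. RefSeq entries on GRCh38.p14, each running from 250 bases before to 50 bases after a start, were found for 43 of the 50 genes, as 53 promoters. There was no entry for AURKA, BIRC5, FOXM1, PBK, TPX2, TTK and UBE2C. A CHR, searched on both strands as TTTGAA or TTCGAA, was present in 38 of the 53 member promoters (71.7%), against 16.4% of all 35116 promoters. CCAAT, on both strands, was present in 42 (79.2%), against 34.6% of all promoters. Both were present in 33 member promoters (62.3%), against 6.4% of all promoters. Of the 6, NDC80 and NUF2 had no CCAAT. The CHR of NUF2 and the TTCGAA of NDC80 lay wholly past the start, and the TTTGAA of NDC80, from 3 bases before the start, ran across it. Only windows before the start were taken, so none is given for NDC80 and NUF2. Windows around 1 CHR of the other 4, all of which also had a CCAAT, are given below with the motif in capitals, 5′ to 3′ on the gene's strand.
CDC20 CHR: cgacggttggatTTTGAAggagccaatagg
HMMR CHR: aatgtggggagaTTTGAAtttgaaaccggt
PRC1 CHR: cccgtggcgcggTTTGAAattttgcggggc
CCNB2 CHR: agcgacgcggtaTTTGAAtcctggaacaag
CDC20 CCAAT: attttgaaggagCCAATaggcgctcggag
The CDC20 windows lie at chr1:43358904-43358933 and chr1:43358914-43358942 (plus strand), so that its CHR, 65 bases before the start, is followed at once by a CCAAT. The HMMR window is at chr5:163460592-163460621 (plus strand, 28 bases before the start) and runs into a second TTTGAA. The PRC1 window is at chr15:90994538-90994567 (minus strand, 20 bases before the start), and the CCNB2 window at chr15:59105105-59105134 (plus strand, 29 bases before the start). A match of letters is a description of the promoter and was not measured as a binding site.

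Coding sequences of 5 members were searched for GGACT, a form of the sequence in which METTL3 methylates an adenosine. The 5 were chosen after their values were seen. CDC20, UBE2C and ANLN had falls with STM2457 that were smaller both with YTHDF2 siRNA and with emetine. BORA and HJURP were called higher in all 5 STM2457 comparisons with scaling to library size (BORA with siRNA turned to −0.04 under spike-in scaling). The windows give 10 bases on each side with GGACT in capitals.
CDC20 coding GGACT: agcgccggcaGGACTccgggccgaa
ANLN coding GGACT: atatcttattGGACTtatccagatg
BORA coding GGACT: ccctctccttGGACTgatcatgaag
HJURP first coding GGACT: gagagatccaGGACTcctccatgaa
HJURP second coding GGACT: tgtgcctcccGGACTcctgggccat
The match starts at base 161 of 1497 coding bases in CDC20, at base 3050 of 3372 in ANLN, at base 566 of 1902 in BORA, and at bases 240 and 1377 of 2244 in HJURP. UBE2C had no GGACT in its coding sequence. So members on both sides, those that fell and those that rose, held the letters. Over all members 78.0% had at least 1 GGACT in the coding sequence (median 0.635 per kb), against 76.0% (median 0.983 per kb) of the 13102 coding genes tested at 9 h. Across the 50 members the number of matches per kb had a Pearson r of 0.078 with the log2 change at 6 h, and across the 49 tested at 9 h an r of 0.011. Genes are not independent replicates and these points share their libraries.

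Total gene counts per library ran from 37694945 to 42303951 in the knockdown experiment, from 22510323 to 34677704 in the 9 h experiment and from 21781514 to 28053353 in the emetine experiment, and the 50 members took 0.575 to 0.819% of them. YTHDF2 mRNA, the siRNA target, averaged 178 ± 3.91 CPM (counts scaled to library size; SD, n = 3) in the DMSO libraries without siRNA and 43.3 ± 1.14 CPM with it, a log2 change of −2.04 (SE 0.06, edgeR adjusted p = 8.25e-15). It averaged 618 ± 36.8 CPM with STM2457 alone and 76.9 ± 3.28 CPM with both. METTL3 mRNA does not report on an inhibitor of its protein. All 6 markers of the HEK293 line were above 1 CPM in some library (summed level 424 to 846 CPM), while 5 of 6 blood, 4 of 7 fibroblast, 4 of 5 keratin epithelium and 5 of 5 hepatocyte markers stayed under 1 CPM in every library (summed levels 1.73 to 3.32, 18.5 to 29.5, 20.0 to 40.4 and 0.00 to 0.436 CPM). Replicate 3 of STM2457 without siRNA in the knockdown experiment stood apart, with an SD of 0.132 (log2) from its group against 0.047 to 0.089 in the other libraries. Its log2 difference from replicates 1 and 2 fell with the log2 exon length of the gene, with a Pearson r of −0.67 across the 50 members and −0.18 across 16536 genes. In it the long mRNAs CENPF (11690 exon bases, −0.49), MKI67 (12807 bases, −0.46) and KIF14 (7277 bases, −0.42) were low and the short CKS2 (613 bases, 0.51) was high. Of the calls at 6 h, MKI67 and GTSE1 lost theirs without it, and PBK, PTTG1, CDCA8, NUF2, DLGAP5 and ECT2 were then called lower. Other values without it stand beside the results on the members it moved most.

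In the 9 h DMSO libraries, members spanned a wide range of levels per kb of exon. CKS2, a small CDK-binding subunit, had the highest level, 188.5 ± 8.40 CPM per kb (SD, n = 4). UBE2C, the ubiquitin-conjugating enzyme of the APC/C, followed at 126 ± 3.14, CDC20 at 118 ± 2.40, CCNB1 (cyclin B1) at 117 ± 2.91 and TOP2A, the topoisomerase of mitotic chromosomes, at 103 ± 2.32 CPM per kb. CDC20 and CCNB1 did not differ beyond their spread, and the other neighbours in that order did. At the low end stood KIF18A (8.04 ± 0.254), CDC25C (8.01 ± 0.0956), PRC1 (1.13 ± 0.112) and NUSAP1 (0.106 ± 0.0215 CPM per kb). The levels of PRC1 and NUSAP1 are uncertain, since 57.6% and 62.2% of their exon bases are shared with another annotated gene on the same strand (ENSG00000284946 and ENSG00000285920). PRC1 had 20 to 233 reads per library and NUSAP1 1 to 15. The exons of BORA (DIS3), HJURP (MROH2A), ANLN (MATCAP2), HMMR (HMMR-AS1), FOXM1 (ITFG2), MAD2L1 (MAD2L1-DT), PLK1 (ERN2), KIF18A (METTL15), KIF20A (BRD8 and CDC23), KIF23 (KIF23-AS1), KIF4A (PDZD11) and CDC25C (FAM53C) overlap a gene on the other strand, and the strand setting of the counting is not given in the sources used here.

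**Figure D1:**
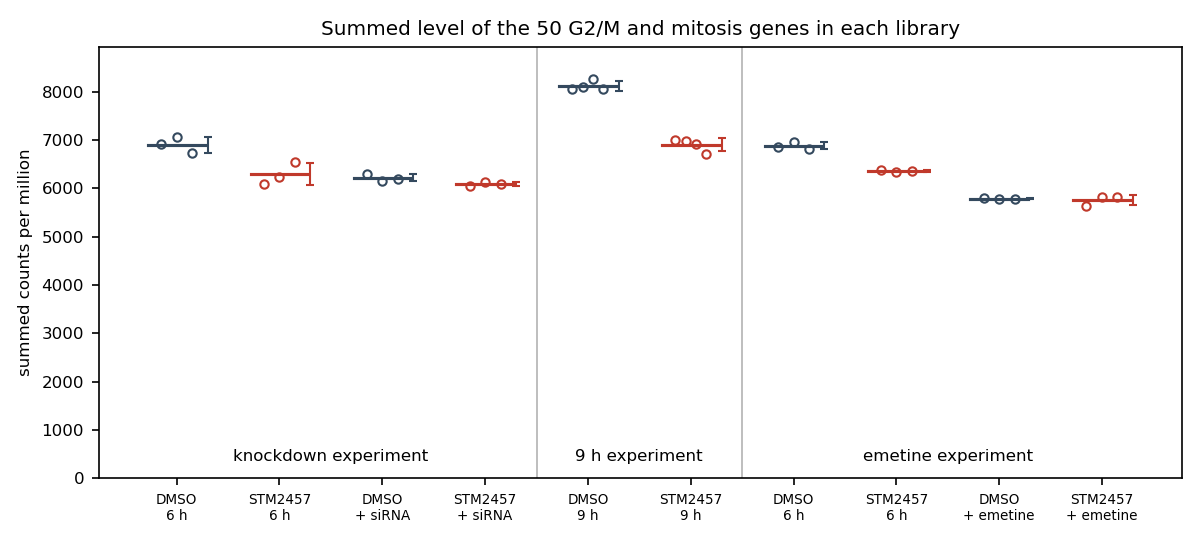
Summed CPM of the 50 members in each of the 32 libraries (y axis, linear, from 0), by group (x axis), with circles for libraries, lines for group means and bars for the SD. The 4 STM2457 libraries at 9 h, 6704 to 6999.5 CPM, lie below the 4 DMSO libraries, 8045 to 8260 CPM, and the emetine libraries are the lowest of their experiment, a place that holds for this scaling to library size.

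Together the members made up 8113 ± 100.3 CPM (SD, n = 4) in DMSO at 9 h and 6899 ± 135.1 CPM with STM2457. In the knockdown experiment their sum was 6901 ± 164 CPM in DMSO and 6287 ± 226 CPM with STM2457, and in siRNA-treated cells 6214 ± 73.8 CPM without and 6089 ± 38.3 CPM with STM2457 (n = 3 each). In the emetine experiment it was 6876 ± 69.4 CPM in DMSO, 6359 ± 17.1 with STM2457, 5783 ± 8.1 with emetine and 5753 ± 100.7 with both. The sums with and without STM2457 did not overlap in the 3 comparisons without siRNA or emetine, nor with siRNA, and they overlapped with emetine.

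After 9 h of STM2457 most mitotic mRNAs were lower, and each role from entry to cytokinesis held members that fell. Of the 49 members tested 39 fell and 5 rose, where 32.5% of all 15834 genes tested fell and 32.2% rose (edgeR's quasi-likelihood test, Benjamini-Hochberg adjusted p under 0.05 over all genes tested). The median log2 change of the members was −0.29, against −0.00 for all genes. CDC20 fell most, to 0.532 times its DMSO level. The 5 members not called were KIF2C, ASPM, KIF14, INCENP and KIF18A. Scaled instead to the ribosomal protein genes, which moved the median of all genes to 0.17, the members' median was −0.12 and 28 fell and 8 rose, with CDC25C (0.04), GTSE1 (0.03) and SPC24 (0.03) slightly above 0 and not called. Of all 15834 genes tested 2422 fell and 7514 rose under that scaling.

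Among the 13 genes of mitotic entry, 11 of 13 fell and 2 rose with a median of −0.36. CCNB1 (ENSG00000134057.15, chromosome 5, 69167010 to 69178245, GRCh38), the main cyclin of mitotic CDK1, stood at 309, 296, 299.9 and 291 CPM in the DMSO libraries and at 207, 207, 207 and 204 CPM with STM2457. All 4 treated libraries lay below all 4 controls, and the log2 change was −0.53 (SE 0.03, edgeR adjusted p = 3.79e-14). CCNB2, the second B-type cyclin, changed by −0.56 (SE 0.04), CDK1 itself by −0.33 (SE 0.03), PLK1, the Polo-like kinase, by −0.45 (SE 0.03) and AURKA, the Aurora kinase of the centrosome, by −0.36 (SE 0.03). CDC25B and CDC25C, the phosphatases that activate CDK1, fell by 0.50 and 0.14 on the log2 scale, the latter with no call without replicate 1, 2 or 4 of STM2457 (−0.11 each). PBK, a mitotic kinase, fell by 0.61 (SE 0.05), and CKS2, NEK2, a kinase that separates centrosomes, and GTSE1 changed by −0.37 (SE 0.04), −0.22 (SE 0.04) and −0.14 (SE 0.03).
The exceptions in this group were BORA, the cofactor with which AURKA activates PLK1, and FOXM1, the transcription factor of G2 genes. BORA (ENSG00000136122.16, chromosome 13, 72727749 to 72756198) rose from 54.6, 53.6, 54.99 and 58.7 CPM to 70.3, 73.6, 70.2 and 68.8 CPM, with no overlap and a log2 change of 0.35 (SE 0.04, edgeR adjusted p = 8.73e-09). FOXM1 changed by 0.09 (SE 0.03, edgeR adjusted p = 0.00686).

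All 4 spindle checkpoint genes and all 4 genes of anaphase fell. MAD2L1, which encodes the checkpoint protein MAD2, stood at 158, 158, 164 and 167 CPM in DMSO and at 127, 136, 131 and 134 CPM with STM2457, a log2 change of −0.29 (SE 0.03, edgeR adjusted p = 1.19e-08). BUB1, BUB1B and TTK, the kinases and pseudokinase that build the checkpoint signal, changed by −0.30, −0.18 and −0.19. CDC20 (ENSG00000117399.14, chromosome 1, 43358955 to 43363203), the APC/C activator, stood at 244, 237, 243 and 234 CPM in DMSO and at 124, 128, 127 and 131 CPM with STM2457. The treated libraries were narrowly grouped and far below the controls, and the log2 change was −0.91 (SE 0.03, edgeR adjusted p = 3.04e-18). UBE2C (ENSG00000175063.17, chromosome 20, 45812576 to 45816957) went from 167, 159, 159 and 164 CPM to 100.1, 106, 108 and 112 CPM, a change of −0.61 (SE 0.03, edgeR adjusted p = 6.74e-14). PTTG1 (securin) and ESPL1 (separase), the inhibitor and the protease of sister separation, changed by −0.50 (SE 0.04) and −0.46 (SE 0.03).

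Of the chromosomal passenger complex, which corrects attachments at the centromere, AURKB, CDCA8 and BIRC5 fell and INCENP was not called (0.02, SE 0.03). AURKB, its kinase, stood at 125, 124, 123 and 126 CPM in DMSO and at 88.96, 90.6, 96.2 and 97.4 CPM with STM2457, with no overlap and a log2 change of −0.42 (SE 0.03, edgeR adjusted p = 4.67e-11). CDCA8 (borealin) changed by −0.37 (SE 0.03) and BIRC5 (survivin) by −0.22 (SE 0.04). Of the 8 centromere and outer kinetochore genes 6 fell and 2 rose. NDC80 (ENSG00000080986.13, chromosome 18, 2571511 to 2616635), the microtubule-binding subunit of the NDC80 complex, stood at 49.6, 51.02, 49.8 and 48.1 CPM in DMSO and at 31.4, 28.8, 29 and 28.6 CPM with STM2457. The groups were well apart, with a log2 change of −0.75 (SE 0.04, edgeR adjusted p = 5.39e-14). The other subunits of that complex changed by unequal amounts: NUF2 by −0.62 (SE 0.05), SPC25 by −0.39 (SE 0.04) and SPC24 by −0.14 (SE 0.04). The 2 that rose were HJURP, the chaperone that loads CENPA, from 49.6, 55.1, 55.3 and 55.9 CPM to 62.2, 64.5, 65.03 and 63.1 CPM (0.24, SE 0.04, edgeR adjusted p = 8.84e-06), and CENPF, a large kinetochore protein, by 0.18 (SE 0.05). CENPA, the centromeric histone itself, changed by −0.25 (SE 0.05) and CENPE, a motor that moves chromosomes to the spindle equator, by −0.22 (SE 0.04).

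Of the 7 mitotic kinesins 4 fell and none rose. KIF20A, which moves the passenger complex to the central spindle, stood at 127, 124, 124 and 124 CPM in DMSO and at 102, 102, 104 and 101 CPM with STM2457, a log2 change of −0.28 (SE 0.03, edgeR adjusted p = 5.85e-09). KIF11, which pushes spindle poles apart, changed by −0.26 (SE 0.03), KIF4A by −0.27 (SE 0.03) and KIF23, a subunit of centralspindlin, by −0.20 (SE 0.03). KIF2C, KIF14 and KIF18A were at −0.08 (SE 0.04), −0.06 (SE 0.05) and 0.07 (SE 0.04). Of 5 tested spindle microtubule proteins 4 fell, and HMMR, a spindle assembly protein, stood at 117, 113, 116 and 115 CPM in DMSO and 68.5, 71.6, 75.3 and 61.8 CPM with STM2457 (−0.73, SE 0.04, edgeR adjusted p = 1.18e-13). The TPX2 mRNA, for the activator of AURKA on the spindle, changed by −0.41 (SE 0.03), DLGAP5 by −0.47 (SE 0.03) and the poorly counted PRC1 by −0.63 (SE 0.10), while ASPM was at −0.06 (SE 0.04).
Both genes of the cytokinesis ring fell: ANLN (ENSG00000011426.11, chromosome 7, 36389806 to 36453791), the scaffold anillin, from 229, 236, 234 and 235 CPM to 160.4, 164, 154 and 156 CPM (−0.56, SE 0.03, edgeR adjusted p = 2.8e-14), and ECT2, the activator of RhoA, by −0.43 (SE 0.03). The 2 genes of chromosome structure moved apart. TOP2A stood at 653, 657, 682 and 649 CPM in DMSO and 569, 555, 541 and 503 CPM with STM2457 (−0.28, SE 0.04, edgeR adjusted p = 1.44e-07), whereas MKI67, the coat protein Ki-67, rose from 568, 634, 658 and 627 CPM to 755, 727, 714 and 716 CPM (0.23, SE 0.04, edgeR adjusted p = 9.94e-06). Neither pair of groups overlapped.

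**Figure D2:**
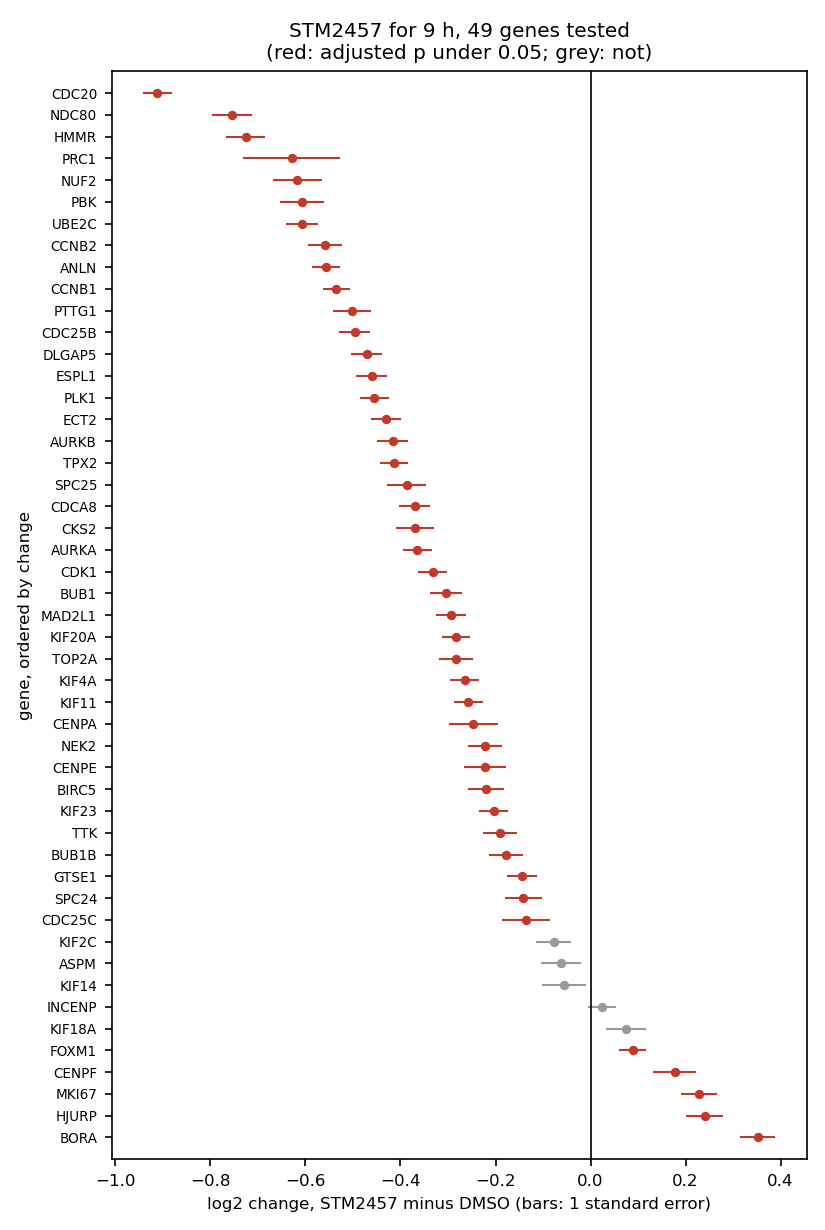
Log2 change with STM2457 at 9 h (x axis, 0 means no change, bars are SE) of the 49 members tested, ordered by change (y axis), from 4 STM2457 and 4 DMSO libraries, red where edgeR called the change. CDC20 is the lowest at −0.91 and BORA the highest at 0.35, and with scaling to ribosomal protein genes CDC20 stays below 0 and BORA above it.

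After 6 h of STM2457 a part of the members fell, in both experiments that measured it. In the knockdown experiment 23 of 50 fell and 4 rose, where 22.1% of all 16662 genes tested fell and 22.9% rose, and the median of the members was −0.13 against −0.02 for all genes. In the emetine experiment, in libraries without emetine, 26 of 49 fell and 4 rose, where 21.9% of all 15817 genes tested fell and 26% rose, and the median was −0.10 against 0.00. KIF14, a kinesin of cytokinesis, CENPF, CDC20 and UBE2C were among the 6 largest falls in both. BORA, HJURP and KIF18A were called higher in both, a direction that scaling to spike-ins turned for KIF18A in the knockdown experiment (−0.09).

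CDC20 stood at 209, 214 and 196 CPM in DMSO and at 134, 142 and 155 CPM with STM2457 in the knockdown experiment, and at 243, 247 and 249 and 178, 175 and 184 CPM in the emetine experiment. In both, all 3 treated libraries were below all 3 controls, with log2 changes of −0.53 (SE 0.06, edgeR adjusted p = 1.56e-06) and −0.46 (SE 0.03, edgeR adjusted p = 1.78e-13). UBE2C changed by −0.51 (SE 0.05, edgeR adjusted p = 1.68e-07) and −0.41 (SE 0.04, edgeR adjusted p = 9.43e-12). ESPL1 and ANLN completed the largest falls of the knockdown experiment, by 0.51 (SE 0.07) and 0.44 (SE 0.05), which without replicate 3 of STM2457 were −0.43 and −0.45, and in the emetine experiment they changed by −0.29 (SE 0.04) and −0.36 (SE 0.03).
KIF14 (ENSG00000118193.12, chromosome 1, 200551497 to 200620734) stood at 72.02, 76.3 and 73.8 CPM in DMSO and 51.8, 56.4 and 40.4 CPM with STM2457 in the knockdown experiment, and at 72.2, 74.1 and 65.9 and 46.2, 48.5 and 45.5 CPM in the emetine experiment. Neither pair of groups overlapped, and the log2 changes were −0.58 (SE 0.09, edgeR adjusted p = 2.16e-05) and −0.60 (SE 0.05, edgeR adjusted p = 2.3e-12). At 9 h the same mRNA was at 105, 111, 109 and 105 CPM in DMSO and 118, 102, 101 and 92.4 CPM with STM2457, where the groups overlapped and no call was made. CENPF changed by −0.54 (SE 0.11, edgeR adjusted p = 0.000725) and −0.46 (SE 0.06, edgeR adjusted p = 3.07e-08) at 6 h. Without replicate 3 of STM2457, the library low for long mRNAs, the knockdown values were −0.47 for KIF14 and −0.41 for CENPF, both still called. NDC80 fell by 0.41 and 0.42 and ASPM, a spindle pole protein, by 0.33 and 0.39 in the 2 experiments.
By role, the entry genes gave 7 lower and 1 higher of 13 in the knockdown experiment and 8 and 1 in the emetine experiment. There PLK1 changed by −0.35 (SE 0.06) and −0.15 (SE 0.03), CDC25B by −0.40 (SE 0.05) and −0.30 (SE 0.05), CCNB1 by −0.19 (SE 0.07) and −0.19 (SE 0.04) while CDK1 was at 0.05 (SE 0.07), not called, and −0.11 (SE 0.03). Of the 4 checkpoint genes none fell and MAD2L1 rose in the knockdown experiment, and BUB1 fell in the emetine experiment (−0.09, SE 0.03). Of the anaphase genes 3 of 4 and 4 of 4 fell, PTTG1 being at −0.11 (SE 0.06) and −0.11 (SE 0.04). Of 8 centromere and kinetochore genes 3 and 4 fell and 1 rose in each, with NUF2 at −0.15 (SE 0.06) and −0.17 (SE 0.05) and SPC24 at −0.21 (SE 0.05) and −0.27 (SE 0.05). TOP2A was not called in either, at −0.10 (SE 0.05) and −0.06 (SE 0.03).

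BORA stood at 52.3, 51.3 and 49.1 CPM in DMSO and at 66.8, 67.5 and 71.9 CPM with STM2457 in the knockdown experiment, and at 41.6, 48.2 and 43.8 and 59.3, 60.5 and 60.5 CPM in the emetine experiment. Its groups did not overlap, and its log2 change was 0.43 (SE 0.05) and 0.43 (SE 0.05). HJURP (ENSG00000123485.12, chromosome 2, 233833416 to 233854566) stood at 42.3, 44.9 and 42.6 and 54.8, 59.7 and 57.8 CPM, and at 39.97, 41.8 and 45.5 and 63.1, 59.2 and 59.2 CPM. Those groups did not overlap either, and the changes were 0.41 (SE 0.05) and 0.51 (SE 0.05). KIF18A, which aligns chromosomes, was called higher in both (0.29 and 0.21), MAD2L1 in the knockdown experiment (0.30, SE 0.08) and INCENP in the emetine experiment (0.23, SE 0.04). Scaling to ribosomal protein genes or to spike-ins moved the median of all genes in the knockdown experiment to −0.28 or −0.39. There the members' median was −0.40 or −0.50, 40 or 29 members were called lower and 0 higher, and BORA and HJURP kept positive values with no call (0.17 and 0.15, or 0.06 and 0.05). Of all 16662 genes tested 7378 or 5023 were then lower and 1244 or 398 higher. In the emetine experiment BORA and HJURP were the members still called higher under either scaling, while 41 or 31 members fell. Of all 15817 genes tested there 6689 or 4679 fell and 2200 or 2092 rose. MAD2L1, like KIF18A, turned below 0 with spike-ins in the knockdown experiment (−0.10).
In the knockdown experiment MAD2L1 was at 0.12 and KIF18A at 0.17 without replicate 3 of STM2457, each still called, while BORA and HJURP were at 0.39 and 0.39. Without that library 27 members fell and 4 rose, and without replicate 2 the number that rose was 8.

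Set side by side, the 6 h effects of the 2 experiments differed for no member by edgeR's test of the difference (0 lower and 0 higher of 50, where 0.604% and 0.239% of all 16720 genes tested were called), and DESeq2 also called 0. At an unadjusted p under 0.05, 4 members were lower and 5 higher. The median difference was −0.04 against −0.02 for all genes. The labels give 2 h of added DMSO for these libraries of the emetine experiment and none for those of the knockdown experiment. A missed threshold does not show that the effects were equal: for MKI67 the difference was 0.40 (SE 0.13) and for MAD2L1 −0.31 (SE 0.10). Leaving out replicate 2 of STM2457 in the knockdown experiment gave 2 lower and 2 higher calls.

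Across the 3 STM2457 comparisons without siRNA or emetine, which share no library, 14 members were called lower each time: the entry genes CCNB1, CCNB2, CDC25B, PLK1 and AURKA, the anaphase genes CDC20, UBE2C and ESPL1, and AURKB, NDC80, SPC24, KIF23, HMMR and ANLN. Of all genes tested 22.1% and 21.9% were called lower at 6 h in the knockdown and emetine experiments and 32.5% at 9 h. How many were called lower each time, or the same way in all 5 comparisons that follow, was not counted. With the comparisons in siRNA-treated and emetine-treated cells included, HMMR, NDC80 and SPC24 were lower in all 5, and BORA and HJURP were higher in all 5. Ribosomal protein scaling, however, turned SPC24 to 0.03 at 9 h, and spike-in scaling turned BORA with siRNA to −0.04. In the knockdown experiment neither of these scalings called BORA or HJURP higher, with or without siRNA. Neither called BORA higher with emetine, and spike-in scaling ended the calls of HMMR and NDC80 with siRNA. Leaving out 1 library ended the 6 h calls of CCNB1 and CCNB2 (without replicate 1 or 2 of DMSO or replicate 1 or 2 of STM2457) and KIF23 (without replicate 1 or 2 of DMSO or replicate 1 of STM2457) in the knockdown experiment, with values from −0.21 to −0.13 for CCNB1, −0.20 to −0.15 for CCNB2 and −0.13 to −0.11 for KIF23. It also ended that of AURKB in the emetine experiment (−0.09 without replicate 2 of STM2457). With emetine, HMMR lost its call without replicate 1 (−0.10) or 3 (−0.14) of emetine alone or without replicate 1 (−0.11) or 3 (−0.13) of STM2457 with emetine, besides the losses of HMMR with siRNA and of NDC80 with emetine given with those results. NUSAP1 was tested in 2 of the 5 and called in neither. For 4 members the called direction differed between times: CENPF and FOXM1 fell at 6 h in both experiments and rose at 9 h, MKI67 was called lower at 6 h in the knockdown experiment and rose at 9 h, and MAD2L1 rose at 6 h in the knockdown experiment (not under spike-in scaling, as above) and fell at 9 h. The libraries of MKI67 at 6 h stood at 239, 296 and 238 CPM in DMSO and 197, 255 and 163 CPM with STM2457, which overlapped, for a log2 change of −0.33 (SE 0.13, edgeR adjusted p = 0.0431). Without replicate 3 of STM2457 it was −0.20, without replicate 1 −0.32 and without replicate 2 of DMSO −0.24, each with no call, and in the emetine experiment MKI67 was at 0.11 (SE 0.06) with no call. FOXM1 lost its 6 h call in the knockdown experiment without replicate 1 (−0.18) or 2 (−0.15) of DMSO or replicate 1 of STM2457 (−0.15), and in the emetine experiment without replicate 2 of DMSO (−0.08) or replicate 1 of STM2457 (−0.09).

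**Figure D3:**
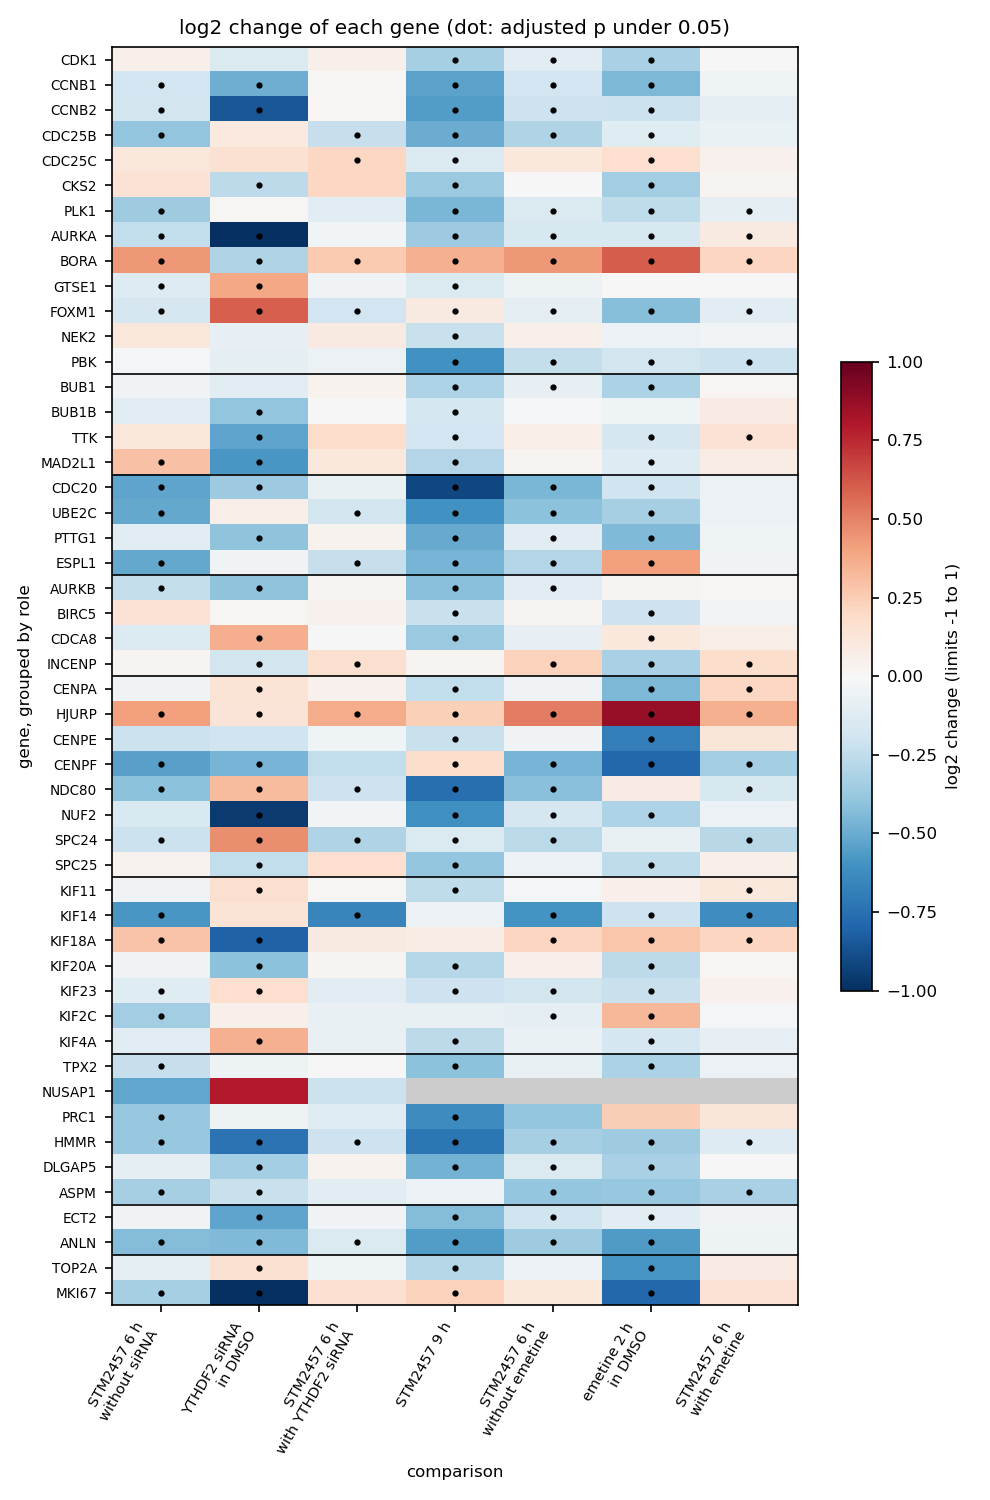
Log2 changes of the 50 members (y axis, by role) in the 7 comparisons of groups (x axis), colour scale in log2 units, a dot where edgeR called the change and grey where NUSAP1 was not tested. The 9 h column is mostly below 0 (39 lower, 5 higher), and the emetine column, also mostly below 0 here, turns to 36 higher and 5 lower with scaling to ribosomal protein genes and to 34 and 3 with spike-ins. Of all 15817 genes tested 11455 and 11558 were higher under those scalings.

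The difference between the 9 h and the 6 h effect (knockdown experiment) was tested in 1 model of the 20 libraries without siRNA or emetine. Of 50 members 31 were lower at 9 h than at 6 h and 6 higher, where 23.3% and 13.8% of all 16720 genes tested were called, and the median difference was −0.24 against −0.03. With scaling to ribosomal protein genes, which moved the median of all genes to 0.44, 0 were lower and 27 higher and the members' median was 0.24. Of all 16720 genes tested 97 were then lower and 9999 higher. The sign of the members' difference thus depended on the scaling. Their median minus that of all genes was −0.21 with scaling to library size and −0.20 with scaling to ribosomal protein genes. The 9 h libraries were taken as a separate experiment, so that its other conditions and the longer time cannot be told apart, and they have no spike-ins.
The most negative differences were those of MAD2L1 (−0.63, SE 0.09, edgeR adjusted p = 8.91e-06), PBK (−0.62, SE 0.09, edgeR adjusted p = 8.8e-06), CKS2 (−0.55, SE 0.12, edgeR adjusted p = 0.000582) and NUF2 (−0.51, SE 0.10, edgeR adjusted p = 0.000185), which stayed negative without a call under the other scaling (−0.13, −0.14, −0.06 and −0.03). The most positive were CENPF (0.68, SE 0.12, edgeR adjusted p = 6.41e-05), MKI67 (0.52, SE 0.12, edgeR adjusted p = 0.00138), KIF14 (0.49, SE 0.10, edgeR adjusted p = 0.000383) and KIF2C, a microtubule depolymerase (0.23, SE 0.07, edgeR adjusted p = 0.00562), all called under both scalings. CENPF stood at 212, 249 and 207 CPM in DMSO and 158, 181 and 120.2 CPM with STM2457 at 6 h, and at 411, 442, 470.4 and 446 and 561, 494, 485 and 461 CPM at 9 h. At 6 h all treated libraries were below all controls, and at 9 h the groups overlapped, with a higher mean with STM2457.
These members differ in length. Across the 50 members the difference had a Pearson r of 0.55 with log2 exon length, against 0.02 across 16582 genes, and the 9 h effect an r of 0.39 across 49 members, against 0.01 across 15731 genes. Replicate 3 of STM2457 at 6 h was low for long mRNAs, and without it 27 members were lower and 5 higher, the median was −0.19, and the difference was 0.55 for CENPF, 0.39 for MKI67, 0.37 for KIF14, −0.45 for MAD2L1, −0.49 for PBK and −0.35 for CKS2, each still called. The part of length in the rest of the difference was not tested.

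YTHDF2 siRNA moved members in both directions. In DMSO 23 of 50 fell and 11 rose with the siRNA, where 29.3% of all 16662 genes tested fell and 33.1% rose, and the median was −0.13 against 0.02. AURKA and MKI67 were below their level without the siRNA by more than 2-fold. Of the 4 checkpoint genes BUB1B, TTK and MAD2L1 fell, as did 3 of 6 spindle microtubule proteins, whereas the centromere and kinetochore genes split into 3 that fell and 4 that rose.

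AURKA (ENSG00000087586.17, chromosome 20, 56369389 to 56392337) stood at 131, 129 and 120.3 CPM without siRNA and at 58.02, 54.7 and 56.97 CPM with it. The groups were far apart, and the log2 change was −1.16 (SE 0.05, edgeR adjusted p = 2.9e-12). MKI67 stood at 239, 296 and 238 CPM and 115, 152 and 116 CPM, with more spread but no overlap (−1.01, SE 0.13, edgeR adjusted p = 1.8e-06). Among the subunits of the NDC80 complex, NUF2 went from 76.3, 81.6 and 76.2 CPM to 39.3, 40.7 and 40.4 CPM (−0.96, SE 0.06, edgeR adjusted p = 2.73e-10), and SPC24 the other way, from 39.96, 41.1 and 41.1 CPM to 57.5, 54.4 and 56.7 CPM (0.47, SE 0.05, edgeR adjusted p = 8.23e-08). NDC80 rose by 0.32 (SE 0.05) and SPC25 changed by −0.25 (SE 0.07), so that 2 subunits of 1 complex rose and the other 2 fell.
CCNB2 (−0.86, SE 0.07), KIF18A (−0.81, SE 0.07) and HMMR (−0.73, SE 0.06) were the other large falls. The siRNA also lowered CCNB1 (−0.49, SE 0.07), MAD2L1 (−0.58, SE 0.08), TTK (−0.53, SE 0.07), ECT2 (−0.53, SE 0.05), PTTG1 (−0.40, SE 0.06) and BORA (−0.30, SE 0.05), while CDK1 (−0.15, SE 0.07), PLK1 (0.02, SE 0.06) and TPX2 (−0.05, SE 0.05) were not called. FOXM1 rose from 202, 209 and 190.4 CPM to 309, 294 and 307 CPM (0.60, SE 0.06, edgeR adjusted p = 7.78e-08), and GTSE1 (0.39, SE 0.05), CDCA8 (0.36, SE 0.06) and KIF4A (0.35, SE 0.05) also rose. Without replicate 3 of the DMSO libraries the number that rose was 7 and without replicate 1 of the siRNA libraries 6, and with scaling to spike-ins 9 fell and 2 rose. Under that scaling 2229 of all 16662 genes tested fell and 2653 rose. What transfection itself did cannot be told apart from the loss of YTHDF2, since the labels do not say whether the compared cells were transfected.

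With YTHDF2 siRNA present, STM2457 for 6 h lowered 9 of 50 members and raised 4, where 15.4% of all 16662 genes tested fell and 15.5% rose, with a median of −0.01 against −0.00. KIF14 stood at 86.2, 81.7 and 76.8 CPM with siRNA alone and 55.2, 49.8 and 49.5 CPM with STM2457 added, with no overlap and a log2 change of −0.66 (SE 0.09, edgeR adjusted p = 6.96e-06). SPC24 (−0.30, SE 0.05), ESPL1 (−0.23, SE 0.07), CDC25B (−0.23, SE 0.05), HMMR (−0.21, SE 0.06) and NDC80 (−0.20, SE 0.05) were lower too. HJURP changed by 0.37 (SE 0.05, edgeR adjusted p = 1.18e-05) and BORA by 0.26 (SE 0.05, edgeR adjusted p = 0.000544), which with scaling to spike-ins became 0.07 and −0.04, so that the direction of BORA turned. CDC25C (0.21, SE 0.06) and INCENP (0.16, SE 0.05), also called higher, turned to −0.09 and −0.14 under that scaling. Without replicate 2 of the siRNA libraries in DMSO, or without replicate 2 of those in STM2457, 2 members were called higher. Calls of named members that were lost without 1 library were those of CDC25C (0.18 without replicate 2 of siRNA in DMSO, 0.20 and 0.19 without replicate 2 or 3 of siRNA with STM2457), INCENP (0.15 and 0.16 without replicate 1 or 2 of siRNA in DMSO, 0.12 without replicate 2 of siRNA with STM2457), ESPL1 (−0.21 without replicate 1 or 2 of siRNA in DMSO, −0.20 without replicate 3 of siRNA with STM2457) and HMMR (−0.17 without replicate 2 of siRNA with STM2457).

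Whether the STM2457 effect itself differed between cells with and without the siRNA was tested as an interaction. It was called positive for 5 of 50 members and negative for 0, where 1.78% and 6.93% of all 16662 genes tested were called, and DESeq2 called 9 and 0. At an unadjusted p under 0.05 there were 14 positive and 1 negative. The median was 0.12 against −0.00 for all genes. The 5 were CDC20, UBE2C and ANLN with KIF2C and AURKB.
CDC20 stood at 160.3, 151 and 171 CPM with siRNA alone and at 144, 161 and 154 CPM with siRNA and STM2457, overlapping groups with a log2 difference of −0.07 (SE 0.06, edgeR adjusted p = 0.401), beside the fall without siRNA given above. The interaction was 0.45 (SE 0.09, edgeR adjusted p = 0.00268). The siRNA by itself had lowered CDC20 (−0.36, SE 0.06), so that its mean with siRNA alone lay between the means of the DMSO and the STM2457 libraries. UBE2C stood at 120.3, 118 and 112 CPM in DMSO and 77.4, 83.3 and 85.7 CPM with STM2457, and in siRNA-treated cells at 125, 119 and 122 CPM without and 105, 112 and 106 CPM with STM2457. In contrast to CDC20, UBE2C was not called with the siRNA alone (0.06, SE 0.05), and its interaction was 0.33 (SE 0.07, edgeR adjusted p = 0.00614). ANLN stood at 267, 246 and 256 CPM in DMSO, 193, 184 and 191 with STM2457, 189, 188 and 191 with siRNA and 177, 170.0 and 167 with both. Its libraries with STM2457 alone and with siRNA alone overlapped, and the interaction was 0.30 (SE 0.07, edgeR adjusted p = 0.00777). For KIF2C it was 0.27 (SE 0.07, edgeR adjusted p = 0.0238) and for AURKB 0.26 (SE 0.07, edgeR adjusted p = 0.0288). With siRNA present, UBE2C and ANLN (−0.14) were still called lower with STM2457, whereas CDC20 was not called.
Without replicate 3 of STM2457 without siRNA the interaction was positive for 19 members and negative for 0, without replicate 2 of that group for 10, and without replicate 1 or 2 of DMSO without siRNA, or replicate 1 of siRNA in DMSO, for 3. In those last 3 fits KIF2C lost its call, at 0.28, 0.26 and 0.28. Scaling to ribosomal protein genes left 1 positive call, CDC20 (0.53), and scaling to spike-ins 0, with CDC20 at 0.52. Of all 16662 genes tested those scalings called 9 and 0 positive. The counts used for these scalings were uneven within groups. Spike-in counts were 164964, 128632 and 196768 in the STM2457 libraries without siRNA and 184305, 144353 and 125760 in those with it. Ribosomal protein counts were 2667495, 2670152 and 3373088 in the STM2457 libraries without siRNA. What part this spread had in the lost calls was not tested.

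**Figure D4:**
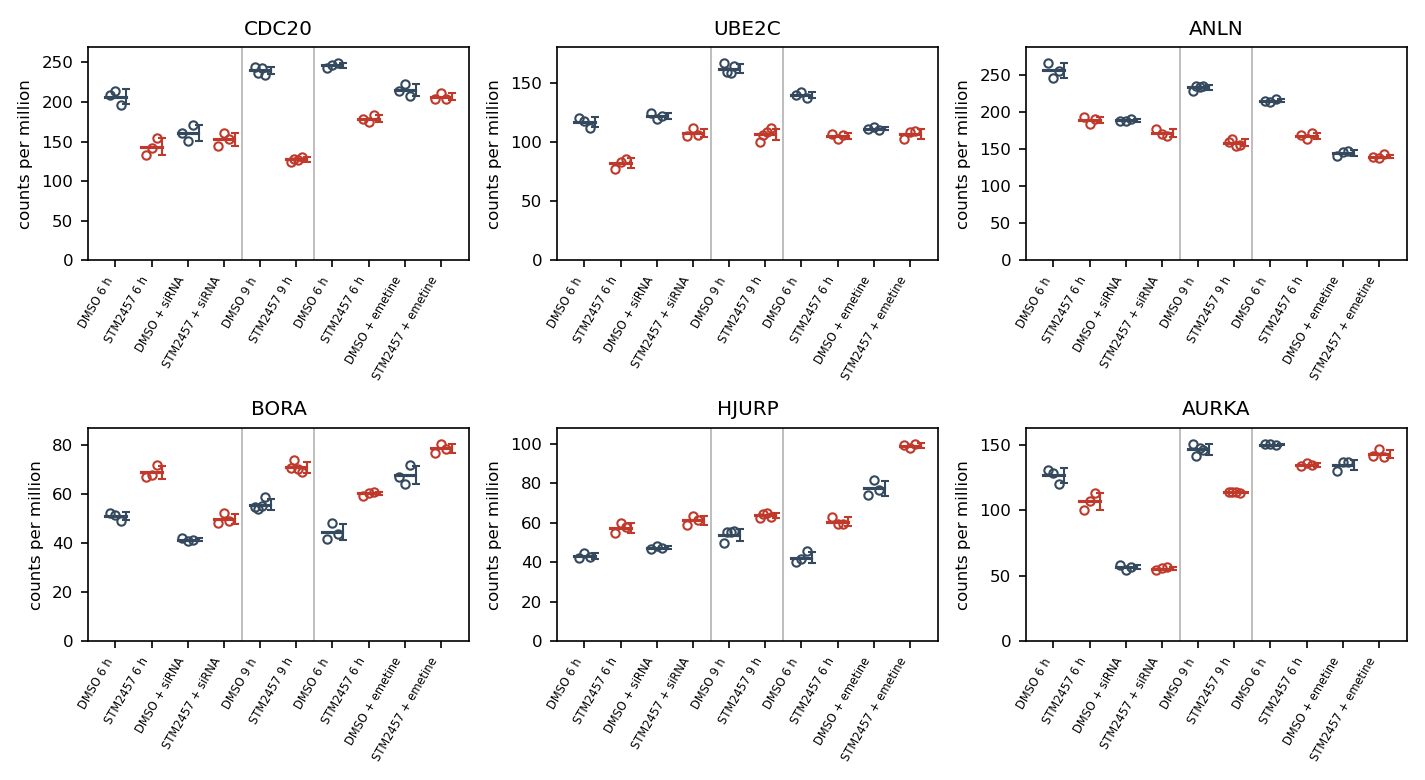
CPM of CDC20, UBE2C, ANLN, BORA, HJURP and AURKA in each of the 32 libraries (y axes, linear, from 0), by group (x axis), with circles for libraries, lines for means, bars for the SD and red for STM2457. CDC20 falls from 234 to 244 CPM in DMSO to 124 to 131 CPM with STM2457 at 9 h, and the fall at 6 h is not seen between the siRNA groups, which overlap.

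Emetine for 2 h lowered most members relative to the library, as 34 of 49 fell and 7 rose, where 28.3% of all 15817 genes tested fell and 33.9% rose. With scaling to ribosomal protein genes 5 members fell and 36 rose, beside 408 and 11455 of all genes. With spike-ins 3 members fell and 34 rose, beside 227 and 11558 of all genes. The rises under these scalings were thus not particular to the members. The median of the members was −0.21 against 0.04 for all genes, and under those scalings 0.23 against 0.47 and 0.28 against 0.52.
The members with the largest changes on either side kept their direction under all 3 scalings. MKI67 stood at 271, 295 and 263 CPM in DMSO and 169, 142 and 169 CPM with emetine (−0.79, SE 0.07, edgeR adjusted p = 1.79e-12, or −0.29 with spike-ins), and CENPF at 214, 229 and 196 and 131, 113 and 126 CPM (−0.79, SE 0.06, edgeR adjusted p = 1.02e-13, or −0.30). Both were lower in all 3 emetine libraries. CENPE changed by −0.69 (SE 0.08), or −0.20 with spike-ins. HJURP stood at 39.97, 41.8 and 45.5 CPM in DMSO and 74.2, 81.7 and 76.7 CPM with emetine (0.87, SE 0.05, edgeR adjusted p = 2.21e-17, or 1.36 with spike-ins), and BORA at 41.6, 48.2 and 43.8 and 67.01, 64.1 and 71.6 CPM (0.60, SE 0.05, edgeR adjusted p = 6.78e-13, or 1.09). Those 2 were the largest rises with emetine. ESPL1 (0.41, SE 0.04), KIF2C (0.33, SE 0.03), KIF18A (0.28, SE 0.05) and CDC25C (0.17, SE 0.05) were called higher under all 3 scalings, though CDC25C lost its call without replicate 2 of emetine (0.13) or replicate 2 or 3 of DMSO (0.13 each). TOP2A (−0.59, SE 0.03) and ANLN (−0.57, SE 0.03) were lower, with no call under spike-ins (−0.10 and −0.08), while CCNB1 (−0.45, SE 0.04) turned to 0.04.

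With emetine present, STM2457 lowered 9 of 49 members and raised 8, where 16.2% of all 15817 genes tested fell and 21.6% rose, with a median of −0.01 against 0.01. KIF14 stood at 63.7, 60.4 and 59.9 CPM with emetine and 37.8, 38.9 and 43.1 CPM with STM2457 added, with no overlap and a change of −0.62 (SE 0.05, edgeR adjusted p = 4.05e-12). CENPF (−0.34, SE 0.06), ASPM (−0.32, SE 0.04), SPC24 (−0.28, SE 0.05), PBK (−0.22, SE 0.06) and NDC80 (−0.16, SE 0.05) were lower as well. HJURP rose further, from 74.2, 81.7 and 76.7 to 99.3, 97.6 and 99.9 CPM (0.35, SE 0.04, edgeR adjusted p = 2.73e-08). KIF18A (0.22, SE 0.04), CENPA (0.21, SE 0.06), BORA (0.21, SE 0.05), INCENP (0.18, SE 0.04) and TTK (0.14, SE 0.04) were called higher, and of these higher calls scaling to ribosomal protein genes or to spike-ins left that of HJURP. Without replicate 1 of STM2457 with emetine 5 members were called lower and NDC80 was no longer called (−0.11), and without replicate 1 of emetine alone TTK was no longer called (0.11).

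The STM2457 effect with emetine minus the effect without it was called positive for 13 of 49 members and negative for 1, where 6.71% and 11.1% of all 15817 genes tested were called, and the median was 0.11 against −0.01. The 13 were CDC20, UBE2C, ANLN, NDC80, HMMR, CDC25B, ESPL1, ECT2, CCNB1, KIF23, AURKA, TOP2A and CENPA, and the 1 was BORA. CDC20, UBE2C and ANLN were thus the members called positive in both interactions, which come from separate experiments with no library in common. How many of all genes were called positive in both was not counted. In the siRNA interaction UBE2C and ANLN lost their call under either other scaling, and CDC20 lost it with spike-ins.
CDC20 stood at 214, 223 and 208 CPM with emetine and 204, 212 and 204 CPM with emetine and STM2457. These groups overlapped, and the log2 difference was −0.06 (SE 0.03), beside −0.46 (SE 0.03) without emetine. The interaction was 0.40 (SE 0.05, edgeR adjusted p = 1.14e-07). UBE2C stood at 139.6, 143 and 137 CPM in DMSO, 107, 102 and 106 with STM2457, 111, 113 and 111 with emetine and 102, 109 and 109 with both, so that the last 3 groups lay close together, and its interaction was 0.35 (SE 0.05, edgeR adjusted p = 3.69e-06). ANLN stood at 216, 213 and 218, 169, 164 and 172, 141, 147 and 148 and 139.6, 138 and 143 CPM in the same order (0.31, SE 0.05, edgeR adjusted p = 1.17e-05). NDC80 had an interaction of 0.26 (SE 0.07, edgeR adjusted p = 0.00674). For BORA it was −0.22 (SE 0.07, edgeR adjusted p = 0.0193), a smaller rise with emetine than without, which neither of the other scalings called (−0.15 and −0.18).
In the emetine interaction CDC20, UBE2C and ANLN kept their call under all 3 scalings, and with spike-ins they were the 3 members called. Of all 15817 genes tested 227 were called positive and 478 negative with spike-ins. The call of BORA was lost without replicate 1 of DMSO (−0.16), replicate 3 of STM2457 (−0.20), replicate 3 of emetine (−0.18) or replicate 1 of both (−0.20), and without replicate 3 of DMSO or replicate 1 of emetine 2 members were called negative.

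**Figure D5:**
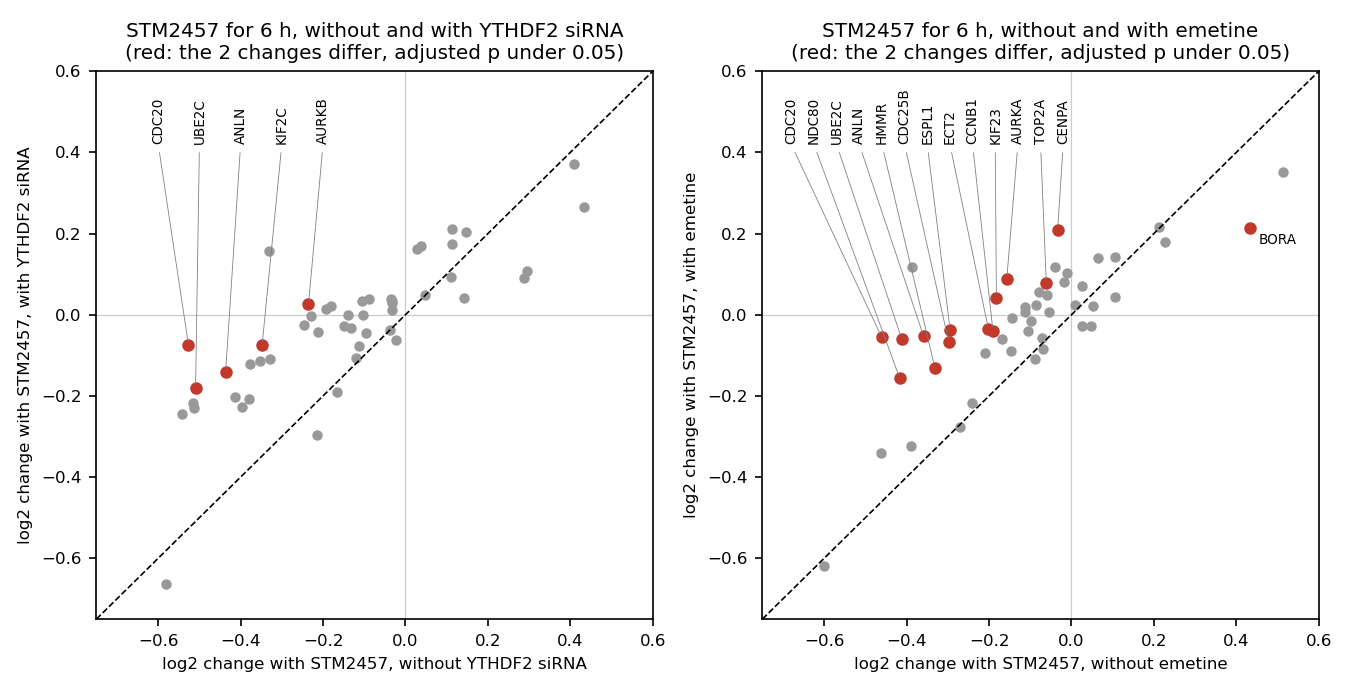
Log2 change with STM2457 at 6 h without the second treatment (x axis) against that with it (y axis), 1 panel for YTHDF2 siRNA (50 members) and 1 for emetine (49 members), with the line of equal change and red for a called difference. CDC20, UBE2C and ANLN lie well left of 0 in both panels. On the y axis all of them lie near 0 with emetine. With siRNA CDC20 lies near 0, while UBE2C and ANLN (−0.14) were still called lower. KIF14 lies near the line, and with spike-in scaling the siRNA interaction of CDC20 is 0.52 with no call.

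The other genes of the mitotic pathway, from lists drawn up by function, are counted here with scaling to library size, and each count is read against the 32.5% of all genes tested that fell and the 32.2% that rose at 9 h. Of 18 APC/C subunits and regulators 11 fell and 1 rose at 9 h, and UBE2S, the chain-elongating partner of UBE2C, changed by −1.01 (SE 0.08, edgeR adjusted p = 2.3e-11). Of the 8 condensin genes 7 fell and none rose, among them NCAPG (−0.72, SE 0.03) and NCAPH2 (−0.59, SE 0.04). In the inner kinetochore 16 of 21 fell and 3 rose (CENPP −0.73, SE 0.05, and ZWINT −0.54, SE 0.03), and of 7 tested checkpoint genes outside the members 6 fell and 1 rose: BUB3 was at −0.38 (SE 0.03) and MAD2L1BP, which silences the checkpoint, at 1.21 (SE 0.04). Entry and exit regulators outside the members gave 8 lower and 1 higher of 14, with CCNA2 (cyclin A2) at −0.36 (SE 0.03) and PPP2R2A, a subunit of the phosphatase PP2A, at −0.23 (SE 0.03). DREAM and MuvB subunits with B-MYB gave 6 lower and 2 higher of 12 (LIN52 −0.51, SE 0.05, and E2F5 −0.26, SE 0.04), and other spindle and cytokinesis genes 10 lower and 3 higher of 20 (RACGAP1 −0.48, SE 0.03, and FAM83D 0.94, SE 0.03).
Cohesin and its regulators were mixed, with 7 lower and 5 higher of 15, among them the release factor WAPL (0.54, SE 0.03) and the loader NIPBL (0.34, SE 0.03). Genes of G1/S and replication also fell, 26 of 36 with 6 higher (MCM7 −0.57, SE 0.03, and FEN1 1.31, SE 0.03), so that the falls at 9 h were not limited to G2/M genes.
At 6 h in the knockdown experiment, where 22.1% of all genes tested fell and 22.9% rose, the same lists gave, lower and higher: APC/C 4 lower and 6 higher, condensin 5 and 0, inner kinetochore 4 and 4, DREAM and MuvB 1 and 2, cohesin 1 and 6, checkpoint genes outside the members 1 and 1, entry and exit regulators 1 and 5, other spindle genes 8 and 4 and G1/S genes 11 and 8. The APC/C list (22.2% lower) and the inner kinetochore list (19% each way) were thus near the share of all genes. In the emetine experiment, where 21.9% of all genes tested fell and 26% rose without emetine, the counts were APC/C 4 and 3, condensin 5 and 1, inner kinetochore 9 and 3, DREAM and MuvB 2 and 5, cohesin 2 and 7, checkpoint genes 5 and 1 of 8 tested, entry and exit regulators 2 and 8, other spindle genes 7 and 7 and G1/S genes 17 and 9. In the knockdown experiment KNL1, the scaffold that recruits the checkpoint, changed by −0.86 (SE 0.08, edgeR adjusted p = 3.09e-08), MAD2L1BP by 1.86 (SE 0.08, edgeR adjusted p = 5.77e-12), MASTL, the kinase that holds PP2A off, by 0.58 (SE 0.04), WAPL by 0.81 (SE 0.05) and FAM83D, a spindle protein, by 1.54 (SE 0.06).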

How the data were processed

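The 32 libraries were strand-specific poly(A) RNA sequencing libraries. The authors deposited a raw count of reads for each Ensembl gene, not normalized. Trimmomatic, cutadapt (1.18 and 4.0), FastQC 0.11.8, STAR 2.7.3a, Subread 2.0.0 with featureCounts, and SAMtools 1.9 were used on GRCh38.p12, per the submitters' processing notes. The annotation release of the counts and their strand setting were not given in the sources used here. Of 60662 IDs, 60306 had a symbol and 58587 were in GENCODE 29, which gave positions and exon lengths. Counts of 92 ERCC spike-ins (24 libraries) were kept apart.

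Groups came from the labels. Counts were tested in R 4.3.3 with edgeR 4.0.16 (TMM, filterByExpr by group, quasi-likelihood F tests, Benjamini-Hochberg over all genes tested, adjusted p under 0.05), with 1 fit per experiment and 1 fit of the 20 libraries without siRNA or emetine for differences between experiments, 11 comparisons in all. CPM are counts divided by the TMM library size, and log2 changes are treated minus control. The code was tested on simulated counts. The members and lists were chosen with earlier results of these data known, so that list counts and medians are descriptions without a test. The text names up to 6 members per direction in comparisons of groups, up to 4 in differences of effects, the member of each role with the smallest p at 9 h, and up to 2 genes per other list, and others to complete a role or complex.

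Replicates are not said to be separate cultures, and the p-values then measure the spread among these samples, which may be technical. Alternatives were DESeq2 1.42.0, no filter on low counts, scaling to 84 ribosomal protein genes or to the spike-ins, replicate number as a block, and leaving out each library.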

Additional observations from a re-analysis of the deposited data

Results flagged for a closer look

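In the 9 h experiment, where groups held 4 libraries, 9 of 98 member-and-group sets of CPM values had 1 library far from the other 3, and chance gives about 1 in 20. Among the DMSO libraries these were CCNB2 in replicate 2 (80.01 CPM against a median of 82.4), HJURP in replicate 1 (49.6 against 55.2), INCENP in replicate 4 (150.3 against 157) and KIF20A in replicate 1 (127 against 124). Among the STM2457 libraries they were CCNB1 in replicate 4 (204 CPM against a median of 207), CDC25C in replicate 3 (26.9 against 23.5), KIF20A in replicate 3 (104 against 102), NDC80 in replicate 1 (31.4 against 28.9) and PTTG1 in replicate 1 (48.995 against 54.8). In each case the distance was small beside the level, and no one library was apart for most members.

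With scaling to library size, edgeR's interaction test called the STM2457 effect at 6 h different with YTHDF2 siRNA for 5 members. The largest called differences were those of CDC20 (0.45), UBE2C (0.33), ANLN (0.30) and KIF2C (0.27), in log2 units. All were a smaller fall with the siRNA. Scaling to ribosomal protein genes or to spike-ins ended the calls of UBE2C, ANLN and KIF2C, and spike-ins ended that of CDC20. With emetine the difference in the STM2457 effect was called positive for 13 members and negative for 1. The largest called positive differences were those of CDC20 (0.40), UBE2C (0.35), ANLN (0.31) and NDC80 (0.26), again smaller falls. The negative one was that of BORA (−0.22), a smaller rise. Neither other scaling called BORA, and spike-in scaling did not call NDC80. The STM2457 effect was called lower at 9 h than at 6 h for 31 members and higher for 6. The most negative differences were those of MAD2L1 (−0.63), PBK (−0.62), CKS2 (−0.55) and NUF2 (−0.51), whose calls ribosomal protein scaling ended. The most positive were those of CENPF (0.68), MKI67 (0.52), KIF14 (0.49) and KIF2C (0.23), which kept their calls under that scaling. CENPF, MKI67 and KIF14 are among the longest members, and here 9 h and the separate experiment cannot be told apart.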

How the results depend on the processing

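Scaling was the choice that moved most counts, and the cause was not tested. In the knockdown experiment the spike-in counts themselves differed within groups, as given with the siRNA interaction. With ribosomal protein scaling the members called lower and higher were 40 and 0 with STM2457 at 6 h without siRNA, 18 and 0 with siRNA, 41 and 2 without emetine, 25 and 1 with emetine, 28 and 8 at 9 h, 22 and 6 with YTHDF2 siRNA, 5 and 36 with emetine alone, 0 and 1 for the siRNA interaction, 0 and 18 for the emetine interaction, and 0 and 27 for 9 h minus 6 h. All genes tested gave, in that order, 7378 and 1244, 4241 and 704, 6689 and 2200, 4364 and 1657, 2422 and 7514, 3996 and 4609, 408 and 11455, 122 and 9, 933 and 1338, and 97 and 9999. With spike-in scaling the members gave, in the same order without 9 h, 29 and 0, 5 and 0, 31 and 2, 7 and 1, 9 and 2, 3 and 34, 0 and 0, and 0 and 3. All genes tested then gave 5023 and 398, 2381 and 138, 4679 and 2092, 2581 and 1351, 2229 and 2653, 227 and 11558, 0 and 0, and 478 and 227. Directions turned with spike-in scaling for CCNB1 with emetine alone (0.0384), for MAD2L1 (−0.104) and KIF18A (−0.0926) with STM2457 without siRNA, and for BORA (−0.0431), CDC25C (−0.0915) and INCENP (−0.142, and −0.0268 with ribosomal protein scaling) with siRNA. The siRNA interaction was positive for 9 members by DESeq2, 8 without the filter on low counts and 8 with the replicate block. The difference between the 6 h effects was called lower for 1 and higher for 1 member without the filter, and higher for 1 with the replicate block. Equal replicate numbers were not shown to pair libraries (correlations of their deviations from −0.35 to 0.583 over 18 pairs in the knockdown, −0.103 to 0.088 over 4 in the 9 h and −0.129 to 0.308 over 18 in the emetine experiment), and the replicate block kept all 100 calls of named members, as did DESeq2 and the fit without the filter. Leaving out each library gave, lower and higher, 17 to 27 and 4 to 8 at 6 h without siRNA, 6 to 8 and 2 to 4 with siRNA, 27 to 31 and 4 to 4 without emetine, 5 to 8 and 6 to 10 with emetine, 38 to 40 and 5 to 6 at 9 h, 22 to 24 and 6 to 9 with YTHDF2 siRNA, 33 to 35 and 5 to 7 with emetine alone, 0 to 0 and 3 to 19 for the siRNA interaction, 0 to 2 and 9 to 15 for the emetine interaction, 27 to 34 and 5 to 6 for 9 h minus 6 h, and 0 to 2 and 0 to 2 for the difference between the 6 h effects. Among the values of named members 730 kept their call, 22 lost it and 0 turned.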
